A study of Mus musculus with 6 samples.

Results

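The CC chemokine genes described here are Ccl2, Ccl3, Ccl4, Ccl6, Ccl7, Ccl8, Ccl9, Ccl12 and Ccl24, chosen by gene name from the 27458 genes of the deposited table. All 9 had a row, and 7 of them were among the 11636 genes that were tested, those averaging 1 FPKM or more. Ccl8 and Ccl24 lay below that level. FPKM is the number of sequenced fragments scaled by transcript length and library total. RNA was sequenced from primary mouse bone marrow macrophages in 6 libraries, all cultured with M-CSF, the cytokine on which macrophages depend for growth and survival. One group of 3 libraries came from wild-type mice (RKIP+/+, called WT), and the other group of 3 from mice without RKIP (RKIP-/-, called KO). RKIP is the product of Pebp1 and restrains signalling from Raf to the ERK kinases. The strain, age and sex of the mice, the construction of the null allele, the length of the culture and any pooling of animals are not given in the sources used here. Separate animals or cultures are not named for the libraries, so each p-value rests on library-to-library spread that may be technical.

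CC chemokines are small secreted proteins named for a pair of adjacent cysteines near the amino terminus of the mature protein. They act through G protein-coupled receptors of the Ccr family and direct the movement of monocytes, macrophages, T cells and eosinophils. Ccl2, Ccl7 and Ccl12 are ligands of Ccr2, the receptor with which monocytes leave the marrow and enter inflamed tissue, while mouse Ccl8 acts on Ccr8. Ccl3 and Ccl4 are the macrophage inflammatory proteins 1 alpha and 1 beta, and Ccl3 is a ligand of Ccr1. Ccl6 and Ccl9 are rodent chemokines of the macrophage inflammatory protein group that act through Ccr1, and Ccl9 is known in bone as a product of osteoclasts that acts on their precursors. Ccl24, or eotaxin-2, draws eosinophils through Ccr3.

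The cysteine pair that names the family is shown for 8 members. Each line gives 30 bases of the coding sequence of the longest coding transcript (GENCODE M21 on GRCm38), 5′ to 3′, with the codons of the adjacent cysteines in capitals. Ccl24 encodes 2 such pairs, and the second is shown.
Ccl2: gccccactcaccTGCTGCtactcattcacc
Ccl7: aatgcatccacaTGCTGCtatgtcaagaaa
Ccl12: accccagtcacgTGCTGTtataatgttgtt
Ccl8: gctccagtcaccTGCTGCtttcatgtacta
Ccl4: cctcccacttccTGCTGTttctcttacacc
Ccl6: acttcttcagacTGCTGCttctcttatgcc
Ccl9: gactcttcagatTGCTGCctgtcctataac
Ccl24: atcccctcatctTGCTGCacgtcctttatt
Among the sequences shown, the cysteine codons were TGCTGT in Ccl4 and Ccl12 and TGCTGC in the others. The coding sequences held 92 codons in Ccl3 and Ccl4 and up to 148 in Ccl2, and any pair of members was identical at 61.6% to 72.4% of aligned bases. The closest pairs were Ccl2 with Ccl7 at 72.4%, Ccl3 with Ccl4 at 71.4%, Ccl8 with Ccl12 at 70.8% and Ccl6 with Ccl9 at 70.6%. No stretch of 50 bases in a transcript of the other 8 members occurred in a transcript of another gene, and in Ccl9 59 of 2996 such stretches did (2.0%).

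The promoter table from RefSeq (GRCm38.p6) held 5 members, and 4 of them are shown because their RNA was high enough to be tested. Each line gives the 120 bases just before the transcription start, 5′ to 3′ on the gene's own strand. Capitals mark matches to the motifs searched.
Ccl6, chr11:83593088-83593207, minus strand: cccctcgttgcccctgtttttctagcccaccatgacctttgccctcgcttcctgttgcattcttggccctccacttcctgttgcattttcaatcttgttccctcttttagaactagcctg
Ccl9, chr11:83578637-83578756, minus strand: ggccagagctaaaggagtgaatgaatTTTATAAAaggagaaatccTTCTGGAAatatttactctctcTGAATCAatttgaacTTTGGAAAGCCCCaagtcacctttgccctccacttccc
Ccl3, chr11:83649379-83649498, minus strand: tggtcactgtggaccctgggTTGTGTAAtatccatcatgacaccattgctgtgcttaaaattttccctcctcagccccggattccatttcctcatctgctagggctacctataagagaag
Ccl12, chr11:82101725-82101844, plus strand: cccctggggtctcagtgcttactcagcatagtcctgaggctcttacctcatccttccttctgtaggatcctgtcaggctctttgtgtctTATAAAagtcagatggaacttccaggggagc
The motifs were searched on both strands from 250 bases before to 50 bases after the start, and the shares that follow are of 32851 RefSeq promoters of that length. Ccl9 held the AP-1 motif TGANTCA (7.81% of promoters), the NF-kB consensus (8.46%) and 2 matches to the C/EBP motif TTNNGNAA (40.7%), 1 of which overlaps the NF-kB match. Ccl3 held 1 C/EBP match. Ccl12 held TATAAA 31 bases before the start, Ccl8 held it 32 bases before, and Ccl9 held it at 3 places, 2 of which overlap (13.6% of promoters). Ccl8 also held the PU.1 motif GAGGAAG (13.6%). The STAT motif TTCNNNGAA (8.30%) and the interferon-stimulated response element (3.44%) matched in no member, and Ccl6 matched none of the 7 motifs. A match is only a match of letters in this window. The best local alignment of the Ccl6 and Ccl9 promoters covered 67 bases, of which 58 were identical (86.6%), from 59 bases before the start in Ccl6 and from 18 bases before it in Ccl9. Ccl12 and Ccl8 aligned over nearly the whole window, with 176 of 263 bases identical (66.9%).

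Pebp1 was at 39.2, 33.2 and 39.0 FPKM in WT libraries 1 to 3 and was listed at 0 in all 3 KO libraries, as the labels say. Library totals were 53188659 to 55255365 estimated counts in WT and 63607276 to 70059042 in KO, without overlap. All 11 macrophage markers were tested, and their summed levels, 22336 to 23872 FPKM in WT and 20286 to 20631 in KO, were mostly Lyz2 (means of 19286 and 16648 FPKM). WT library 1 stood apart from the other WT libraries in the summed level of neutrophil markers, though not in every marker. The values are given below with those of other cell markers.

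Of the 7 tested members, 6 were lower in KO and none was higher (edgeR quasi-likelihood test, adjusted p below 0.05, two-sided). At an unadjusted p below 0.05 the count of higher members was 0 as well, and it was 0 with DESeq2 and with limma. Among all 11636 tested genes, 19.4% were called lower and 20.3% higher. The median log2 fold change, KO over WT, was -0.64 over the 7 tested members and -0.008 over all tested genes. Ccl4 and Ccl2 fell most, Ccl6 fell by 43.6 FPKM from the highest level of any member, and Ccl9, the second most abundant, was not called. In a fit that takes out how each library's counts follow the length and GC content of transcripts, called here the length and GC correction, 3 members, Ccl2, Ccl4 and Ccl6, were called lower, against 14.6% of all tested genes called lower and 17.0% called higher in the same fit. In 5 members, Ccl2, Ccl3, Ccl4, Ccl6 and Ccl7, every KO library lay below every WT library, which held for 19.1% of all tested genes, while 32.4% had every KO library above every WT library. Levels were measured in bulk cultures, in which fewer cells of a type and less RNA per cell cannot be told apart.

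**Figure D1:**
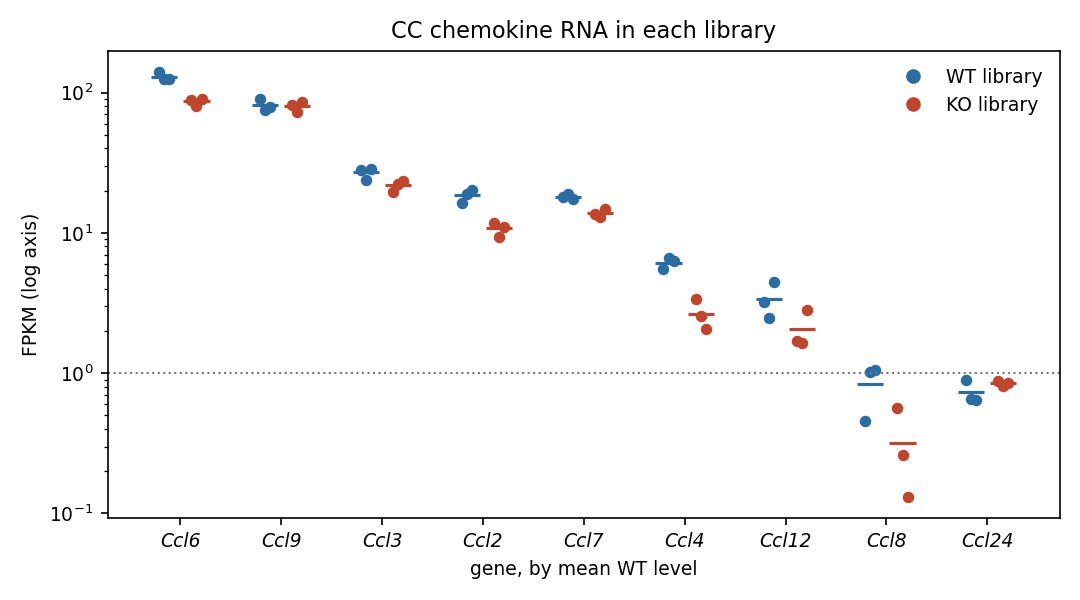
FPKM of each CC chemokine gene in the 3 WT and 3 KO libraries on a log axis, with 1 point per library and a bar at each group mean. The levels run from under 1 FPKM for Ccl8 and Ccl24 to 140 FPKM for Ccl6 in WT library 1, and the groups are separate for Ccl2, Ccl3, Ccl4, Ccl6 and Ccl7.

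Among the Ccr2 ligands, Ccl2, the main monocyte attractant of the family, was at 16.4, 19.1 and 20.3 FPKM in WT libraries 1 to 3 and at 11.8, 9.41 and 11.1 FPKM in KO libraries 1 to 3. Every KO library was below the lowest WT library. The means were 18.6 ± 2.00 FPKM in WT and 10.8 ± 1.22 in KO (SD, n = 3 each), and Ccl2 fell 1.79-fold (log2 fold change -0.84 ± 0.11 SE, edgeR, adjusted p = 0.000118). After correction for length and GC it was -0.61 (adjusted p = 0.00103). The gene lies on the plus strand of chromosome 11 from 82035571 to 82037453.

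Ccl7, which also signals through Ccr2, was at 17.9, 19.0 and 17.5 FPKM in WT and at 13.6, 12.9 and 14.8 FPKM in KO. The groups did not overlap, and the spread within each was small, with a coefficient of variation of 4.35% in WT and 6.84% in KO. Ccl7 fell 1.36-fold, from 18.1 ± 0.789 to 13.8 ± 0.943 FPKM (log2 fold change -0.45 ± 0.09 SE, edgeR, adjusted p = 0.00196). After correction it was -0.17 (adjusted p = 0.148) and no longer called. Ccl7 starts 10.1 kb from the start of Ccl2, on the plus strand from 82045712 to 82047525.

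Ccl12, a rodent Ccr2 ligand, was at 3.21, 2.45 and 4.44 FPKM in WT and at 1.70, 1.65 and 2.81 FPKM in KO. KO library 3 was above WT library 2, so the groups overlapped. The means were 3.37 ± 1.002 and 2.05 ± 0.656 FPKM, and the call was the nearest to the threshold of all members (log2 fold change -0.76 ± 0.28 SE, edgeR, adjusted p = 0.0494). These levels stand for about 20 to 36 fragments per WT library and 16 to 28 per KO library. The length and GC correction gave -0.44 (adjusted p = 0.265), and the call was lost in 15 of the 22 alternative settings and left-out libraries. The gene spans 82101845 to 82103400 on the plus strand.

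Ccl8, next to Ccl12 and closest to it in sequence, was measured at 0.452, 1.03 and 1.05 FPKM in WT and at 0.566, 0.262 and 0.132 FPKM in KO. Those values stand for only about 4, 8 and 8 fragments in WT and 5, 3 and 1 in KO, and KO library 1 exceeded WT library 1. In a fit with no filter on low values the log2 fold change was -1.42 ± 0.64 SE (edgeR, adjusted p = 0.215), so no difference was detectable at this depth. Ccl8 spans 82115185 to 82116799 on the plus strand.

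Ccl3, a ligand of Ccr1, was at 28.2, 23.9 and 28.8 FPKM in WT and at 19.6, 22.5 and 23.6 FPKM in KO. The highest KO library lay 0.316 FPKM below the lowest WT library. Ccl3 fell 1.28-fold, from 26.9 ± 2.67 to 21.9 ± 2.02 FPKM (log2 fold change -0.35 ± 0.09 SE, edgeR, adjusted p = 0.00977). After correction the value was 0.0069 (adjusted p = 0.966), of the opposite sign and not called. The gene lies on the minus strand from 83647844 to 83649355.

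Ccl4, the macrophage inflammatory protein gene beside it, was at 5.54, 6.59 and 6.27 FPKM in WT and at 3.38, 2.54 and 2.07 FPKM in KO. The groups were well apart, with the highest KO library 2.17 FPKM below the lowest WT library. Ccl4 fell 2.39-fold, the largest fold change of the 7 tested members, from 6.13 ± 0.535 to 2.66 ± 0.661 FPKM (log2 fold change -1.25 ± 0.20 SE, edgeR, adjusted p = 0.000558). The correction left it at -0.82 (adjusted p = 0.0079). Its depth was about 57 to 66 fragments per WT library and 26 to 38 per KO library. Ccl4 is on the plus strand from 83662584 to 83664683, 13.2 kb from Ccl3 and transcribed the other way.

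Ccl6 was the most abundant member in both groups by mean, at 140.3, 124 and 126 FPKM in WT and at 89.2, 80.4 and 89.9 FPKM in KO. All KO libraries were below all WT libraries. It fell 1.56-fold, from 130.1 ± 8.86 to 86.5 ± 5.30 FPKM (log2 fold change -0.64 ± 0.06 SE, edgeR, adjusted p = 1.59e-05), and was at -0.47 with the length and GC correction (adjusted p = 2.4e-05). Ccl6 lies on the minus strand from 83587882 to 83593087. The antisense gene E230016K23Rik overlaps it at 0.0596 to 0.285 FPKM, and whether the counting used strand is not given in the sources used here.

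Ccl9, 9.25 kb from Ccl6 and on the same strand from 83572919 to 83578636, was at 90.1, 75.01 and 79.0 FPKM in WT and at 81.2, 73.1 and 85.0 FPKM in KO. The groups overlapped almost fully. Means were 81.4 ± 7.80 and 79.8 ± 6.11 FPKM, and the log2 fold change of -0.08 ± 0.07 SE did not pass (edgeR, adjusted p = 0.396). The correction gave -0.11 (adjusted p = 0.169).

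Ccl24, an eosinophil attractant and the only member off chromosome 11, was at 0.892, 0.659 and 0.644 FPKM in WT and at 0.885, 0.811 and 0.846 FPKM in KO. WT library 1 was the highest of the 6, above every KO library, and the other WT libraries were the lowest. With no filter on low values its log2 fold change was 0.19 ± 0.23 SE (edgeR, adjusted p = 0.652), on about 13 to 21 fragments per library. On chromosome 5, minus strand, Ccl24 spans 135569937 to 135573049, 18.3 Mb from Pebp1.

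**Figure D2:**
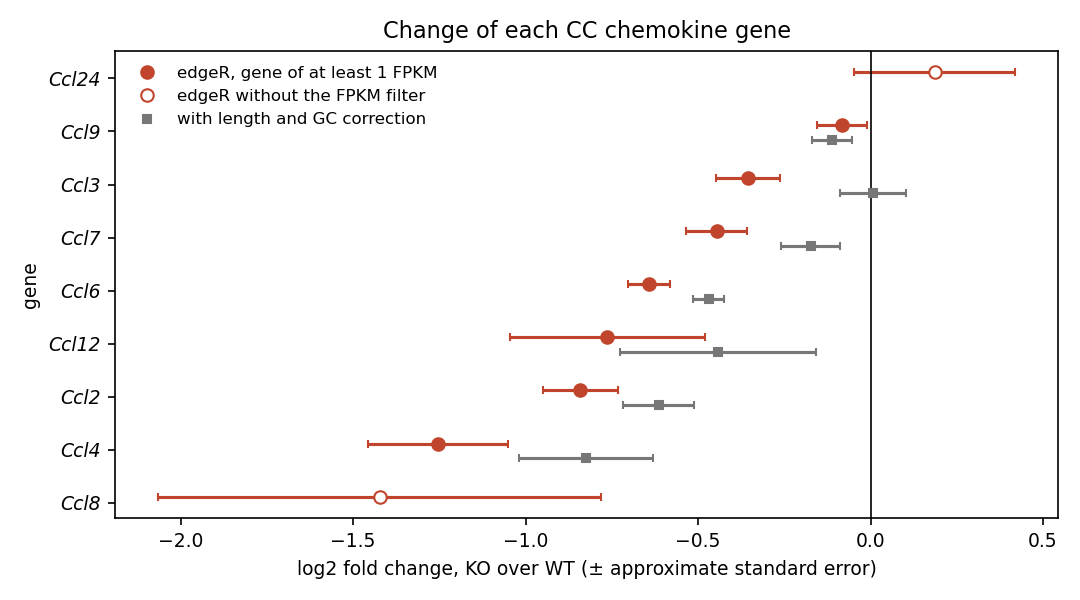
Log2 fold change, KO over WT, of each CC chemokine gene by edgeR, as circles (open for Ccl8 and Ccl24, fitted without the FPKM filter) and, for the 7 tested genes, with the length and GC correction as squares, with bars of 1 approximate standard error. Ccl2, Ccl4 and Ccl6 lie well below 0 in both fits, Ccl3 moves from -0.35 to 0.0069, and Ccl9 lies near 0 in both.

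By mean FPKM, a level per length, the order in WT ran Ccl6, Ccl9, Ccl3, Ccl2, Ccl7, Ccl4, Ccl12, Ccl8, Ccl24, and neighbours overlapped only for Ccl2 with Ccl7 and Ccl8 with Ccl24. In KO, the ranges of Ccl6 and Ccl9 overlapped, although Ccl6 was above Ccl9 within each of the 3 libraries, and so did those of Ccl4 and Ccl12. Ccl7, at 12.9 to 14.8 FPKM, was above Ccl2, at 9.41 to 11.8, in every KO library, and Ccl24 was above Ccl8. The FPKM of Ccl2 and Ccl6 divide by a longer length than their coding transcript, by 1.40 and 1.25 times, so the order of Ccl2 against Ccl7 depends on the length used.

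The members together made up 302.9, 271.7 and 284 FPKM in WT and 221.9, 203.5 and 230.2 in KO. Ccl6 was 45.4 ± 0.981% of this sum in WT and 39.6 ± 0.573% in KO, while Ccl9 was 28.4 ± 1.17% and 36.5 ± 0.523%, with no call in its own level. Ccl6 and Ccl9 together were 73.8 ± 1.98% and 76.0 ± 0.682%. The shares use FPKM without the length and GC correction.

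Ratios between neighbouring members were compared in 4 pairs by an exact two-sided permutation test over libraries, which with 3 against 3 cannot go below 0.1. The log2 ratio of Ccl6 to Ccl9 was 0.64, 0.73 and 0.67 in WT and 0.14, 0.14 and 0.08 in KO, a difference of -0.56 (exact permutation p = 0.1, adjusted 0.133, n = 3 each). That of Ccl2 to Ccl7 went from 0.03 ± 0.17 to -0.36 ± 0.13, and that of Ccl3 to Ccl4 from 2.13 ± 0.25 to 3.06 ± 0.49, each with no overlap between groups and the same exact permutation p. For Ccl12 to Ccl8 the groups overlapped (exact permutation p = 0.5). All 4 ratios use FPKM without the length and GC correction. With the correction the log2 fold changes were -0.47 for Ccl6 and -0.11 for Ccl9, whose coding transcripts have 1440 and 3006 bases. The part of length in these ratios was not tested.

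**Figure D3:**
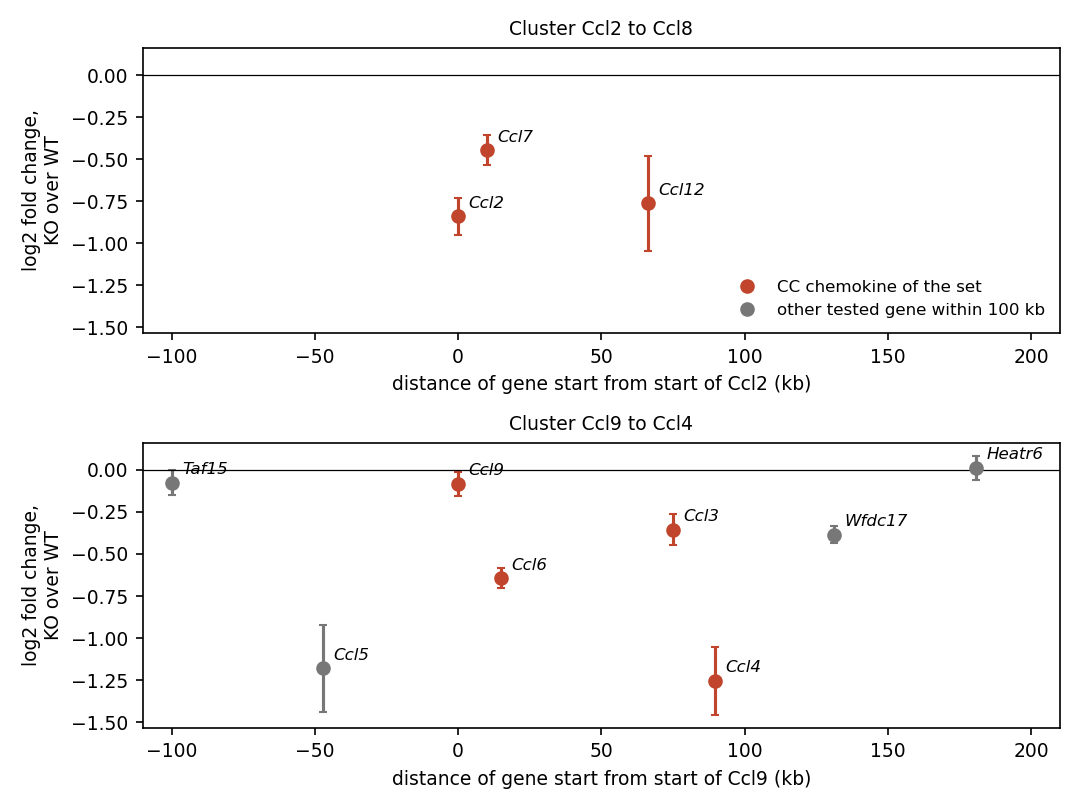
Log2 fold change, KO over WT, with bars of 1 approximate standard error, of tested genes in and within 100 kb of each chromosome 11 cluster, by distance in kb from the start of Ccl2 (top) or Ccl9 (bottom). CC chemokine genes of the set are red and other genes grey, and the neighbours Ccl9 and Ccl6 lie at -0.08 and -0.64.

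On chromosome 11 the members form 2 clusters, Ccl2 to Ccl8 over 81.2 kb and Ccl9 to Ccl4 over 91.8 kb, 1.46 Mb apart. Within 100 kb of the first, 1 further gene had a row and it was not tested. Around the second, 4 of 10 further genes were tested, and 2 of these were lower, Ccl5 and Wfdc17. Wfdc17, a small secreted protein with a WAP domain, stood at 311.4 ± 12.2 FPKM in WT and fell to 247.5 ± 14.1 in KO (-0.38 on the log2 scale, edgeR, adjusted p = 0.00017). With the correction Wfdc17 was at -0.0122 (adjusted p = 0.849) and not called. Taf15 (-0.08, adjusted p = 0.446) and Heatr6 (0.01, adjusted p = 0.903) were not called.

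The members' coding transcripts are short, between 511 and 1440 bases except for Ccl9 at 3006, and fold changes over all tested genes went with length. Of 286 tested coding genes with a longest coding transcript of 500 to 850 bases, the range of Ccl2, Ccl3, Ccl4, Ccl7, Ccl8 and Ccl12, 182 were called lower (63.6%) and 3 higher (1.05%), with a median log2 fold change of -0.35. After the correction that median was -0.01. Of 1452 coding genes with up to 1500 bases 42.4% were lower, and of 8969 longer ones 13.8%. Ccl2, at -0.84, Ccl4, at -1.25, Ccl12, at -0.76, and Ccl7, at -0.45, lay below the median of the short genes, and Ccl3, at -0.35, lay at it. The part of length in the members' changes was not tested beyond the correction.

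**Figure D4:**
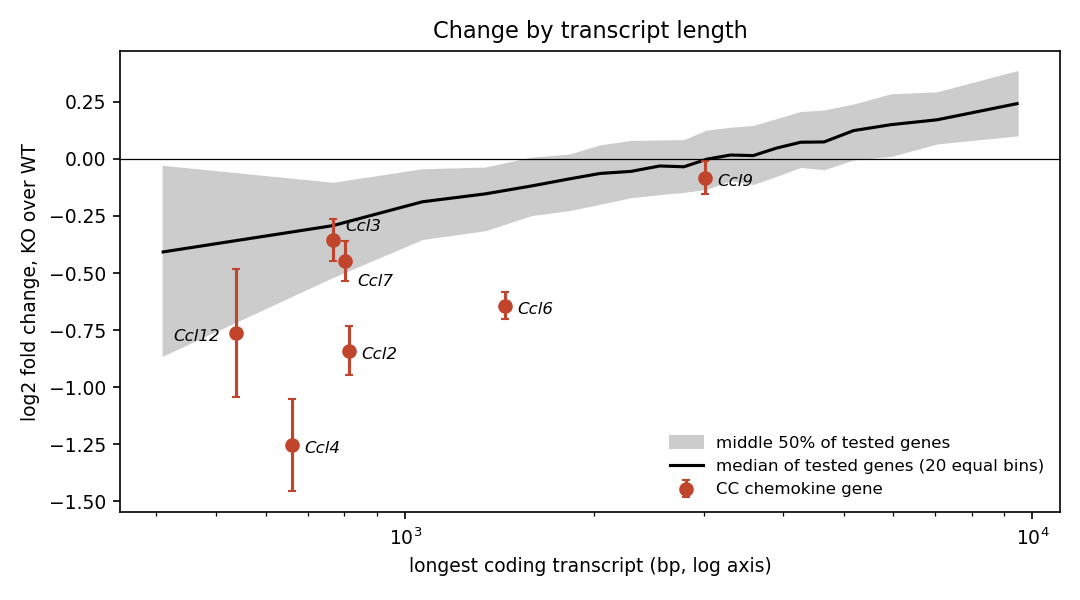
Log2 fold change, KO over WT, against length of the longest coding transcript in bp (log axis), with the median (line) and middle 50% (grey) of tested genes in 20 equal bins and the 7 tested CC chemokine genes as points with bars of 1 approximate standard error. Ccl3, Ccl7 and Ccl9 lie within the grey band, Ccl12 near its lower edge, and Ccl2, Ccl4 and Ccl6 below it.

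The 7 tested members followed their mean pattern over the 6 libraries to differing degrees, given as a description. The Pearson r of each with the members' mean pattern was 0.975 for Ccl6, 0.926 for Ccl7, 0.918 for Ccl2, 0.869 for Ccl12, 0.866 for Ccl3, 0.837 for Ccl4 and 0.418 for Ccl9. Tested genes outside the set with a closely similar pattern included Alg5 (r = 0.9991), Gm4737 (0.9965), Ccl5 (0.9921) and Qdpr (0.9903). All 6 libraries share the group difference, which enters every such r. Each member is also part of the mean it is compared with, which raises its own r.

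Of 15 further CC chemokine genes, 8 had a row and 1, Ccl5, was tested. Ccl5, a T cell and monocyte attractant that acts on Ccr1 and Ccr3, was at 1.78, 1.501 and 1.65 FPKM in WT and 0.727, 0.520 and 0.992 in KO. It fell (log2 fold change -1.18 ± 0.26 SE, edgeR, adjusted p = 0.00375), and with the correction it was at -0.73 (adjusted p = 0.0473). With the correction on coding transcripts, chosen after seeing the data, Ccl5 was at -0.69 and not called (edgeR, adjusted p = 0.0601). Its means were 1.64 FPKM in WT and 0.746 in KO, so it reached the filter through its WT level alone. These levels rest on 37 to 107 estimated counts per library, with about 4 counts read as 1 fragment, against 63 to 143 counts for Ccl12. Ccl20 and Ccl22 were near the limit of detection, with 4, 0 and 0 estimated counts of Ccl20 and 14, 8 and 4 of Ccl22 in WT and 0 in all KO libraries.

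Of 11 CC receptor genes, 8 had a row and 4 were tested, with 1 higher and 1 lower, against 20.3% and 19.4% of all tested genes. With the length and GC correction 1 was higher and 2 were lower, against 17.0% and 14.6%. Ccr2 was at 4.34, 3.73 and 3.79 FPKM in WT and at 6.77, 6.15 and 7.45 in KO, with no overlap, and rose (log2 fold change 0.73 ± 0.08 SE, edgeR, adjusted p = 5.19e-05). Ccr1 fell from 8.65 ± 0.360 to 6.25 ± 0.495 FPKM (-0.52 ± 0.08 SE, adjusted p = 0.000372). With the correction Ccr2 was at 0.47 (edgeR, adjusted p = 0.000298) and Ccr1 at -0.63 (edgeR, adjusted p = 7.05e-05).

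Ccr3, the Ccl24 receptor, was at 1.09 ± 0.115 and 1.09 ± 0.0847 FPKM (-0.05 on the log2 scale, edgeR, adjusted p = 0.82). The decoy receptor gene Ackr2 reached at most 0.0402 FPKM in WT and was listed at 0 in KO, and Ccrl2 was at 2.99 ± 0.521 and 2.57 ± 0.280 FPKM (adjusted p = 0.161). Of the 2 tested atypical receptors, 0 were called by edgeR, DESeq2 or limma, and 1, Ackr4, was higher at an unadjusted p below 0.05 in edgeR.

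Of 30 tested genes that carry the signal of chemokine receptors, 10 rose and 5 fell (median log2 fold change 0.04). Gng2, a G protein gamma subunit, was at 36.6 ± 1.40 FPKM in WT and rose to 55.1 ± 1.34 in KO (0.54 on the log2 scale, edgeR, adjusted p = 5.54e-06), and Pik3cg, the G protein-activated PI3 kinase, rose by 0.37. The KEGG chemokine signalling term of the deposited table had 125 tested genes, 42 higher and 30 lower. Over all tested genes 20.3% were higher and 19.4% lower. The 30 genes all had coding transcripts longer than 1500 bases, and of 8969 such coding genes 2239 were higher and 1237 lower. With the length and GC correction 9 of the 30 were higher and 3 lower, against 17.0% and 14.6% of all tested genes. Whether these counts differ from those of genes of like length was not tested.

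Of 7 tested genes for proteases that cut CC chemokines, 3 rose and 3 fell, against 20.3% and 19.4% of all tested genes. With the length and GC correction 2 were higher and 3 lower, against 17.0% and 14.6%. Mmp9, a gelatinase that is also made by neutrophils, fell from 16.5 ± 1.48 to 3.999 ± 0.648 FPKM (-2.09, edgeR, adjusted p = 1.23e-07). Mmp8 fell by 0.93 on the log2 scale, and Mmp12, a macrophage elastase that trims CC chemokines, rose by 0.34. With the correction Mmp9, Mmp8 and Mmp12 were at -2.02, -0.90 and 0.16. Of 13 tested regulators of chemokine mRNA decay and translation, 9 rose and 0 fell, against 20.3% and 19.4% of all tested genes. Their median log2 fold change was 0.25. All 13 had coding transcripts longer than 1500 bases, and of 8969 such coding genes 2239 were higher and 1237 lower. With the correction 5 of the 13 were higher and 1 lower, against 17.0% and 14.6% of all tested genes. Their median was then 0.12. A difference of these regulators from genes of like length was not tested. Zfp36l1 and Zfp36l2, which bind AU-rich elements and promote decay, rose by 0.44 and 0.37. The element ATTTA occurred 5 times in the 3′ UTR of Ccl3, Ccl9 and Ccl12, 4 times in Ccl6, 2 times in Ccl4 and Ccl7, 1 time in Ccl2 and in neither Ccl8 nor Ccl24, which is an arrangement of letters and not a measure of decay.

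Markers of some other cells, among them neutrophils and monocytes, moved with genotype. Of 14 neutrophil markers 9 were tested, most of which reached the filter through their WT level alone, and 8 of these fell while Csf3r was not called. Of the 5 not tested, Mpo, Elane and Prtn3 overlapped between the groups. The summed level of all 14 was 86.7 FPKM in WT library 1, 166.2 and 174.1 in WT libraries 2 and 3, and 16.8 to 17.7 in KO, with Ly6g at 0 in KO. S100a9, the largest part of the WT sums by mean, was at 23.3, 72.1 and 75.6 FPKM in WT libraries 1 to 3. Not every marker was low in WT library 1, as Ltf was at 6.98, 6.93 and 6.93 FPKM and Mmp8 at 8.74, 8.79 and 8.28. Of 9 tested monocyte markers, 7 fell and 1, Ccr2, rose, with sums of 786.5 to 807.8 in WT and 593.4 to 617.3 in KO. These sums were mostly Fn1 (means of 396.6 FPKM in WT and 379.3 in KO, not called) and S100a4 (351.0 and 187.3). S100a4 was at -0.96 on the log2 scale and at -0.47 with the length and GC correction. With the correction 8 of the 9 were lower and 1 higher. WT library 1 was the lowest of WT in the sum of neutrophil markers. In that library Ccl2, Ccl4 and Ccl8 were at their lowest WT level, Ccl6, Ccl9 and Ccl24 at their highest, and Ccl3, Ccl7 and Ccl12 in between. Without WT library 1, 5 members were lower, Ccl12 being the exception (adjusted p = 0.0843), and the log2 fold change of Ccl9 was -0.0034. The part of these cells in the members' changes was not tested.

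Sums of B cell markers were 25.2 to 30.1 FPKM in WT and 45.6 to 52.5 in KO, with 2 of 3 tested genes higher and 1 lower. Eosinophil markers (1.06 to 1.23 FPKM in WT, 1.11 to 1.49 in KO), mast cell and basophil markers (2.03 to 2.49 and 1.55 to 1.85) and T and NK cell markers (1.79 to 2.14 and 1.58 to 2.06; Cd3d, Cd3g, Cd8a and Gzmb at 0 in KO and at most 12 estimated counts in any WT library) had 1 tested gene each, Ccr3, Mcpt8 and Cd4, with adjusted p of 0.82, 0.101 and 0.311 by edgeR. Dendritic cell markers (36.7 to 39.2 and 35.3 to 41.8) had 1 of 2 tested genes higher, with Flt3 at 0 in KO and in 2 WT libraries and at 3 estimated counts in the other. Stromal markers (965.9 to 1070 and 995.3 to 1113) had 1 of 7 higher and 1 lower. With the length and GC correction 1 of these 7 was higher and 4 were lower, against 17.0% and 14.6% of all tested genes. The stromal sums were mostly Col1a1 (means of 486.3 FPKM in WT and 459.8 in KO) and Col1a2 (265.8 and 268.8). Of 11 macrophage markers, 3 rose (Adgre1, Csf1r and Mrc1) and 6 fell, but with the correction 4 were higher and 2 lower, with Cd68 turning from -0.15 to 0.12. Of 9 RNA quality and housekeeping genes 1 rose and 1 fell. Their part in the members' values was not tested.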

How the data were processed

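RNA of 6 libraries, 3 WT and 3 KO, was grouped by the genotype in the labels. The deposited table gives FPKM and estimated counts per library, both made by the authors and the counts rounded by them to whole numbers. StringTie 1.3.4d, HISAT2 2.0.4 and cutadapt 1.9 are named, without a role, per the submitters' processing notes. The build and the use of strand in counting are not given in the sources used here. Per the labels' protocols, RNA was selected with oligo(dT) and strand was marked with dUTP. Low deposited counts peak at 4 (5769 values, against 3204 of 3 and 2041 of 5), so about 4 counts were read as 1 fragment.

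Differences between KO and WT were tested with edgeR 4.0.16 in R 4.3.3 (quasi-likelihood F test). The fit took the estimated counts and TMM factors, with Benjamini-Hochberg adjustment over the 11636 genes averaging 1 FPKM or more, at a threshold of 0.05, two-sided. Standard errors are approximate, the size of a log2 fold change divided by the root of its F statistic. The length and GC correction enters each library's loess trend (span 0.3) on length and GC content of the longest GENCODE M21 transcript as an offset. The table lists coordinates, and 23826 of 27382 matched genes have those of GENCODE M21 on GRCm38. Python 3.11.15, numpy 2.4.6, pandas 2.3.3, scipy 1.17.1, Biopython 1.88 and matplotlib 3.10.9 were used, and the fits were tested on simulated data.

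Alternatives were limma 3.58.1 on log2(FPKM + 1), with 0.5 and 0.1 as other pseudocounts, DESeq2 1.42.0, other filters, scalings and spread estimates, counts divided by 4, a replicate block and each library left out. Named genes are the 9 members, Pebp1, the members' receptors, up to 4 tested genes of each list with the smallest p, and the 5 genes of most similar pattern. Some items that the rule selects are not reported here. Members, lists and the rule were chosen with earlier results of these data known. Wfdc17, Taf15, Heatr6 and E230016K23Rik are named for their position, and genes named beside a list were picked from those allowed.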

Additional observations from a re-analysis of the deposited data

How the results depend on the processing

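Across the 22 alternatives run, Ccl2, Ccl4 and Ccl6 stayed called lower and no member was called higher. The count of members called lower was 3 with the length and GC correction and 3 with that correction on coding transcripts, an alternative chosen after seeing the data, against 6, and 5 to 6 with 1 library left out. Ccl3 had the opposite sign under the correction (0.0069), the coding-transcript version (0.0048) and the replicate block with the correction (0.0052), and kept its sign without a call at -0.33 with no filter on low values and -0.19 with no filter and the correction, also chosen after seeing the data. Ccl7 was not called at -0.17 under the correction, its coding-transcript version and its version with the block. Ccl9 was called at -0.11 (edgeR, adjusted p = 0.0499) only under the replicate block with the correction. Ccl12 was not called with limma at pseudocounts of 1 (-0.51), 0.5 (-0.60) and 0.1 (-0.69), median-ratio scaling (-0.76), the correction (-0.44), its coding-transcript version (-0.42), the block with the correction (-0.45), no filter (-0.74), no filter with the correction (-0.73), a minimum of 0.1 FPKM (-0.77) or filterByExpr (-0.76). With 1 library left out Ccl12 ranged from -1.05 to -0.51 and lost its call without WT library 1 or 3 or KO library 1 or 2. Over all genes, no filter with the correction gave 1320 higher and 1475 lower, limma 2770 and 1639, and library totals alone 2059 and 2622, against 2364 and 2253. Replicate numbers were checked for pairing, and same-numbered libraries correlated in their deviations at 0.023, 0.187 and -0.0379, so the numbers are not taken to pair them. With the replicate block alone 2407 genes were higher and 2294 lower, 6 members were lower, and no call of a member changed. The causes of these shifts were not tested. Ccl8 and Ccl24 are limited by depth.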
